A study of Mus musculus with 2 samples.

Results

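The loci of 5 genes for chemokine receptors, Cxcr3, Cxcr4, Cxcr5, Cxcr6 and Cx3cr1, were examined in accessible chromatin of mouse regulatory T (Treg) cells. Peaks of the IDR-thresholded list (IDR is the irreproducible discovery rate, the estimated share of peaks at that rank or better that would not recur) were merged where they overlapped or touched. A region was counted at a receptor gene if it touched the gene body plus 5 kb on either side, or if its nearest protein-coding start, within 100 kb, belonged to that gene. This gave 30 regions of 29415 in all, and 20 of the 30 had a receptor gene's start as their nearest protein-coding start. The assay was ATAC-seq, which reads open chromatin from where a transposase can cut and tag it, on inflammation-experienced Treg cells of the strain Foxp3CreERT2 x Rosa26YFP, from a male adult mouse aged 6 months. In this strain a drug-inducible Cre recombinase is made under the control of Foxp3, the lineage factor of Treg cells, and the Rosa26YFP allele reports Cre activity with a yellow fluorescent protein. Both libraries came from the same donor, as technical replicates of a single biological replicate, and there was no control group. The labels give bone marrow hematopoietic cells as the origin and name neither the inflammation nor the way the cells were isolated.

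Chemokine receptors are G protein-coupled receptors that steer migrating leukocytes along gradients of small secreted proteins. Cxcr3 binds Cxcl9, Cxcl10 and Cxcl11, which interferon induces in inflamed tissue, and it marks T cells with a type 1 programme under T-bet, Treg cells among them. Cxcr4 binds Cxcl12 and retains leukocytes in the bone marrow, and Cxcr5 binds Cxcl13 and brings B cells, follicular helper T cells and follicular Treg cells into B cell follicles. Cxcr6 binds the membrane-anchored chemokine Cxcl16 and is found on activated and tissue-resident T cells. Cx3cr1 binds fractalkine, the product of Cx3cl1, and is best known from monocytes, macrophages, microglia and cytotoxic lymphocytes.

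The sequences below are shown because they surround the summits of greatest fold or of promoters of the receptor loci, together with the Cxcr4 regions that hold the same palindromic motif and the Cxcr3 region of greatest fold. Each has 101 bases centred on the summit, except that of the Cxcr6 promoter, which has the 100 bases before the start. They are from the plus strand of GRCm38 (mm10), written 5′ to 3′, and capitals mark matches to any of 19 consensus motifs. Distances are from the nearest start of the receptor gene, negative upstream.
Cxcr4 +43.4 kb: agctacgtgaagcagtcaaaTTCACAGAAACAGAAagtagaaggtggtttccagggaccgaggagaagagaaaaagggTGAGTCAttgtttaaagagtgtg
Cxcr4 +22.2 kb: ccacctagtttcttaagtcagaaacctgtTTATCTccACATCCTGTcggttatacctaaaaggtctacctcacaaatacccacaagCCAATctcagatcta
Cxcr4 promoter, −329 bp: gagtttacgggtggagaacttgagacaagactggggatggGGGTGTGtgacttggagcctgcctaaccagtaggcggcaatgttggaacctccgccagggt
Cxcr4 −13.7 kb: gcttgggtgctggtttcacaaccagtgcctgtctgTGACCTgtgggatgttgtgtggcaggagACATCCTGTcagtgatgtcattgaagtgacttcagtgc
Cxcr4 −22.7 kb: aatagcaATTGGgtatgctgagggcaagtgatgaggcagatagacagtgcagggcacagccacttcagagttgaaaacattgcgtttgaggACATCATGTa
Cxcr5 promoter, −127 bp: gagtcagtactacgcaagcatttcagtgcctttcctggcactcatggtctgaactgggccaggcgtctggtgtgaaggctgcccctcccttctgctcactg
Cxcr5 −6.7 kb: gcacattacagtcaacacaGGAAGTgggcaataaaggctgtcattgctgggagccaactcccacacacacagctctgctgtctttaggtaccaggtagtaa
Cxcr5 −19.7 kb: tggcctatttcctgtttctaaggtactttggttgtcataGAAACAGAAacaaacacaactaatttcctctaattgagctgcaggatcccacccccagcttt
Cxcr6, the 100 bases before the start: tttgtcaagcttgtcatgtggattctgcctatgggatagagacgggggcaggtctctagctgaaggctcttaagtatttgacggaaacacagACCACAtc
Cxcr6 +8.0 kb: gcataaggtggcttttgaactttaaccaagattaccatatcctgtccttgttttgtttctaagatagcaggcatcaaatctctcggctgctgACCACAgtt
Cx3cr1 +13.3 kb: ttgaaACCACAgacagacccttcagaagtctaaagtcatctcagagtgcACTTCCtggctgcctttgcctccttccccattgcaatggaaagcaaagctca
Cx3cr1 −4.8 kb: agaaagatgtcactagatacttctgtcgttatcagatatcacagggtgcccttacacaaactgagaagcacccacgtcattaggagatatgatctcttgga
Cxcr3 −3.1 kb, pseudoreplicated list only: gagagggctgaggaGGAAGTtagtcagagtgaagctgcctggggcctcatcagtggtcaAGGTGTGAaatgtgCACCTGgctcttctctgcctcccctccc
The Cxcr4 sequences lie, in the order shown, at chr1:128548838-128548938, chr1:128570070-128570170, chr1:128592572-128592672, chr1:128605962-128606062 and chr1:128614950-128615050. Those of Cxcr5 are chr9:44526659-44526759, chr9:44533280-44533380 and chr9:44581562-44581662, and those of Cxcr6 are chr9:123806375-123806474 and chr9:123814485-123814585. The Cx3cr1 sequences are chr9:120054927-120055027 and chr9:120074634-120074734, and the Cxcr3 sequence is chrX:101737310-101737410.

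Of the 5 receptor genes, 3 had an accessible region at the promoter, meaning no more than 1000 bp from the start of a protein-coding transcript. These were Cxcr4, Cxcr5 and Cxcr6. Among all 21938 protein-coding genes the share with a promoter region was 49.5%. At least 1 region was found at 4 of the 5 loci, against 63.3% of all genes. Cxcr4 and Cxcr5 had 8 regions each, Cxcr6 had 2, Cx3cr1 had 12 and Cxcr3 had 0. The count of 8 or more, seen at 3 of the 5, was reached by 2.7% of all genes, whose median was 1 region and 95th percentile 6. Counted by nearest start alone, Cxcr4 had 8 regions, Cxcr5 7, Cx3cr1 3 and Cxcr6 2, where the 95th percentile of all genes was 5. In bulk chromatin, a region open in few cells and one open weakly in many cannot be told apart.

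**Figure D1:**
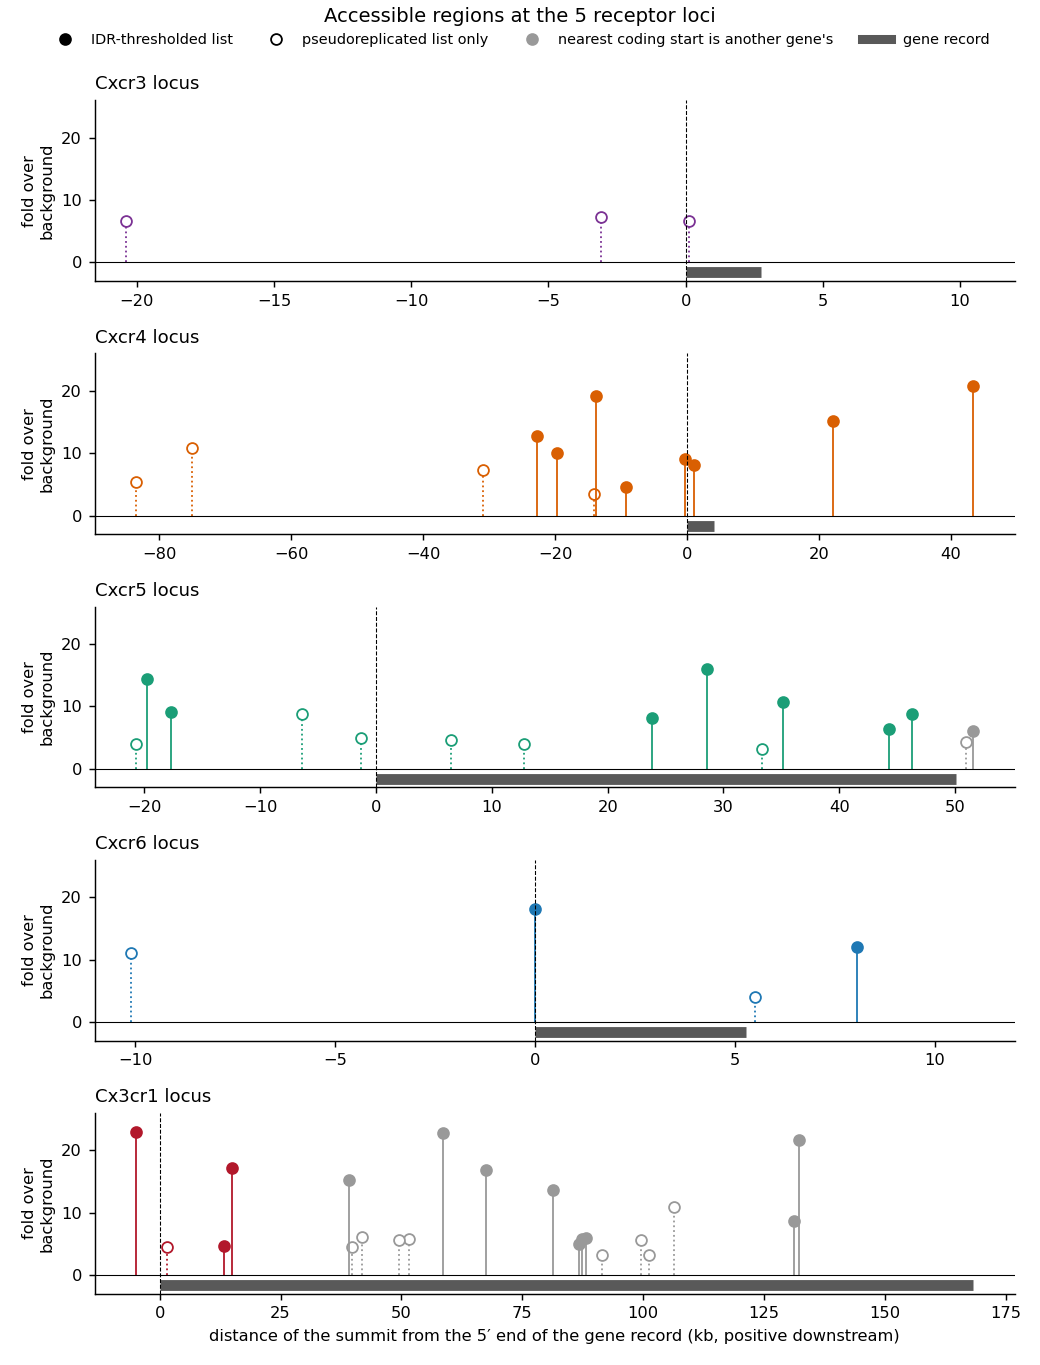
Fold enrichment over background (vertical axis) of each accessible region at the 5 loci against the distance of its summit from the 5′ end of the gene record in kb (horizontal axis, a scale of its own for each gene). Filled points are in the IDR-thresholded list and open points in the pseudoreplicated list only; grey points lie nearest to another gene's start. Cxcr3 has open points alone, Cxcr4 has filled points on both sides of a short gene, and the grey points of Cx3cr1 fill the body of its long record.

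Cxcr4 (ENSMUSG00000045382.6, minus strand, chr1:128588199-128592293) stood by itself, 171 kb from Dars on one side and 681 kb from Thsd7b on the other. Its 8 regions spanned 67.3 kb. By the position of the summit, 6 were intergenic, 1 was in intron 1 and 1 at the promoter. The promoter region, chr1:128591861-128592880, covered both annotated starts and had a fold enrichment over background of 9.004, as the authors' peak caller gave it. Its fold lay at percentile 23.0 of all regions and 16.2 of promoter regions alone. The intron 1 region, chr1:128591047-128591811, reached a fold of 8.09. Its edge also lay within 1000 bp of the starts, so by overlap 2 Cxcr4 regions counted as promoter regions. The regions of greater fold lay away from the gene: a fold of 20.8 at +43.4 kb (chr1:128548507-128549419), 19.2 at −13.7 kb (chr1:128605685-128606181) and 15.1 at +22.2 kb (chr1:128569930-128570608). The first of these was at percentile 87.4 of all regions.

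The regions at −19.7 kb (chr1:128611783-128612248) and −22.7 kb (chr1:128614591-128615765) of Cxcr4 had folds of 9.98 and 12.8, below the median of all regions, 13.1. Their −log10 p, in contrast, was 244 and 362, at percentiles 82.5 and 92.6. By that measure the −22.7 kb region, 1175 bp wide with 3 summits, was the highest of the locus, and the +43.4 kb region had 224. The order of the Cxcr4 regions therefore depended on which of the authors' measures was read. The weakest, at −9.3 kb, had a fold of 4.58 and an IDR of 0.0462, close to the value of 0.05 that the lowest score in the list corresponds to. The list also held a region at −103841 bp, chr1:128695786-128696266 with a fold of 11.7, whose nearest start was Cxcr4's and which lay just past the 100 kb limit.

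Cxcr5 (ENSMUSG00000047880.15, minus strand, chr9:44511787-44561877) has 4 annotated protein-coding starts. The promoter region, chr9:44526258-44527201 with a fold of 10.7, lay at the starts of transcripts Cxcr5-201 and Cxcr5-205, at positions 44526421 and 44526582. The starts farther upstream, of Cxcr5-202 and Cxcr5-204, had no region of the thresholded list closer than 17.9 kb and 17.5 kb. In the pseudoreplicated list weak regions with folds of 4.55 and 4.90 lay 481 bp and 755 bp from them. The highest region of the locus by fold and by −log10 p was not at a start. It lay at −6.7 kb, chr9:44532969-44533597, in introns of the longer transcripts, with a fold of 16.0 and a −log10 p of 233.

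Further Cxcr5 regions in introns were at +10.8 kb with a fold of 8.77, at +8.9 kb with 6.42 and at −11.5 kb with 8.13. Upstream of the longest transcript, regions at −17.7 kb and −19.7 kb had folds of 9.06 and 14.4. The summit of the −17.7 kb region, chr9:44579410-44579733, was −5 bp from the annotated start of the long intergenic noncoding RNA Gm47230, and the −19.7 kb region, chr9:44581328-44581912, lay inside that RNA. The remaining region, chr9:44510150-44510747 with a fold of 6.08, was in an untranslated exon of Bcl9l, a cofactor of Wnt signalling that overlaps the 3′ end of Cxcr5 on the other strand. Its nearest start was that of Bcl9l.

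Cxcr6 (ENSMUSG00000048521.8, plus strand, chr9:123806475-123811760) lies within an intron of Fyco1, a gene for an adaptor of vesicle transport read from the other strand. It had 2 regions, and its promoter region had the greatest fold of those at the 3 receptor promoters. By −log10 p it was the lowest, with 102.7, against 117 at Cxcr4 and 103.3 at Cxcr5. That region, chr9:123806250-123806680, had its summit at −8 bp from the start and a fold of 18.1, at percentile 77.5 of all regions and 65.7 of promoter regions. The other region, at +8.0 kb beyond the 3′ end (chr9:123814133-123814937), had a fold of 11.98. The region next outside on either side, nearest to the chemokine receptor gene Ccr9 and at the promoter of Fyco1, had a fold of 16.8 and 18.98.

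Cx3cr1 (ENSMUSG00000052336.7, minus strand, chr9:119901616-120069879) is listed with 12 regions, but 9 of them were nearer to the start of another gene. Transcript Cx3cr1-202 spans 166668 bp and runs over Wdr48, Gorasp1, Ttc21a, Csrnp1 and Xirp1. The 9 regions lay nearest to Csrnp1 (4 regions), Xirp1 (3), Gorasp1 (1) and Ttc21a (1), with folds between 4.93 and 22.7. Without that transcript, an alternative chosen after the data were seen, 3 regions remained at Cx3cr1 and 21 at all 5 loci. The 3 were the region with the greatest fold assigned to any of the receptor genes, at −4.8 kb (chr9:120074330-120074908) with a fold of 22.9 at percentile 92.8, and intronic regions at +13.3 kb (chr9:120054631-120055430) with a fold of 17.2 and at +11.8 kb with 4.63 and an IDR of 0.0337. By −log10 p the +13.3 kb region, with 262, was above the −4.8 kb region, with 254, and Cxcr4 −22.7 kb above both.

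The starts of Cx3cr1, at 120068283, 120068296 and 120069879, had no region of the thresholded list within 1000 bp. The pseudoreplicated list held a weak region over the first and second of them, chr9:120068211-120068481, with a fold of 4.55 and an IDR of 0.357. The −4.8 kb region lay between Cx3cr1 and Ccr8, which encodes a chemokine receptor known from Treg cells in tissues, and its summit was −17430 bp from the Ccr8 start. Ccr8 itself had a promoter region with a fold of 9.48. Which of the neighbouring genes, if any, the −4.8 kb region acts on was not tested.

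Cxcr3 (ENSMUSG00000050232.6, minus strand, chrX:101731535-101734269) had no region in the thresholded list. The nearest lay 94.1 kb to one side of its start, at the promoter of Ogt with a fold of 15.3, and 32.8 kb to the other, with a fold of 8.40. The longer pseudoreplicated list held 3 regions there, out of 52972 in all. One covered the start, chrX:101733993-101734435, with its summit in the untranslated part of exon 1 at 130 bp, a fold of 6.57 and an IDR of 0.183. Another lay at −3.1 kb, chrX:101737228-101737783, with a fold of 7.24 and an IDR of 0.162, and the last at −20.4 kb, with a fold of 6.57 and an IDR of 0.357. Their folds lay below the median of that list, 8.40. In the pseudoreplicated list all 5 receptor genes had a promoter region, against 55.1% of all genes, and all 5 had at least 1 region, against 71.5% of all genes. Since the depth is unknown, the absence of Cxcr3 from the thresholded list is no measure of closed chromatin. Cxcr3 also lies on the X chromosome and the donor was male, and any effect of copy number on its values was not tested.

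**Figure D2:**
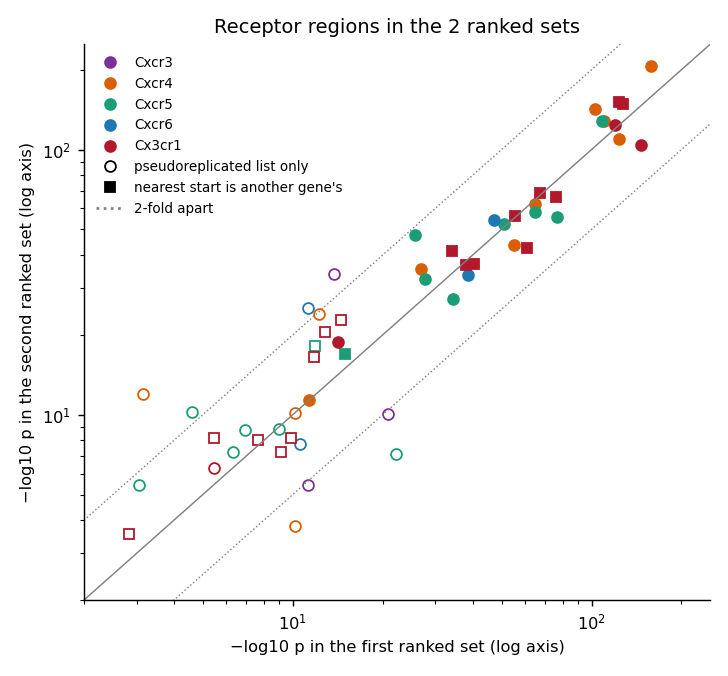
The −log10 p of each receptor region in the first of the sets the authors ranked against each other (horizontal, log axis) and in the second (vertical, log axis). Filled points are in the IDR-thresholded list, open points in the pseudoreplicated list only, squares lie nearest to another gene's start, and the dotted lines mark values 2-fold apart. All filled points lie between the dotted lines. The open Cxcr3 points lie outside them, as do some open points of Cxcr4, Cxcr5 and Cxcr6. Regions of low IDR agree between the sets largely by selection.

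The ranked list gave a −log10 p in each of 2 sets of peaks that the authors ranked against each other. The files do not say what the sets were, so they are not taken for the technical replicates. For a region the greatest value of its peaks in each set was used. At the 30 receptor regions the ratio of the first set to the second was between 0.536 and 1.43, and 30 of 30 were within 2-fold. This compares with 98.9% of the 29464 ranked regions at an IDR of 0.05 or less. IDR is itself a measure of agreement between ranked sets. A list limited to low IDR therefore holds agreeing values largely by selection, so the 30 of 30 is no separate check on these regions. The highest values were 158 and 206, at Cxcr4 −22.7 kb. Of the 25 receptor regions in the pseudoreplicated list only, 17 were within 2-fold (68%), against 74.6% of the 24160 ranked regions at an IDR above 0.05. The 3 Cxcr3 regions were not, with neither set higher throughout. Their values were 20.8 and 10.04 at the start (ratio 2.07), 13.7 and 34.0 at −3.1 kb (0.404), and 11.2 and 5.44 at −20.4 kb (2.06). Regions of Cxcr4, Cxcr5 and Cxcr6 were also more than 2-fold apart. The most distant ratios were 0.263, at Cxcr4 −14.1 kb, and 3.10, at Cxcr5 −6.3 kb.

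The folds of the 30 receptor regions ran between 4.58 and 22.9. Their median was 11.4, against 13.1 over all regions, and 13 of the 30 were above that value. Among the 20 assigned to a receptor start it was 8 of 20. By −log10 p the order was the other way: 19 of the 30 and 13 of the 20 were above the median of all regions. The median percentile of the 30 was 38.6 by fold and 55.0 by −log10 p. The top deposited score of 1000 was given to 23 of the 30 (76.7%) and to 14 of the 20 assigned (70%), against 62.1% of all regions. Promoters held 6 of the 30 summits, 20% with an exact binomial 95% interval of 7.71% to 38.6%, against 36.7% of all regions. Of those 6, 3 were at promoters of Gorasp1 and Csrnp1 inside the long Cx3cr1 record. Promoters therefore held the summits of 3 of the 20 assigned regions (15%, interval 3.21% to 37.9%). Introns held 14 of 30 (46.7%, interval 28.3% to 65.7%), against 30.4% of all regions. Intergenic sequence held 9 of 30 (30%, interval 14.7% to 49.4%), against 29.6%. Of the 20 assigned regions, introns held 8 (40%, interval 19.1% to 63.9%) and intergenic sequence 9 (45%, interval 23.1% to 68.5%). The intervals cover counting error only, and the regions of 1 locus share their surroundings.

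**Figure D3:**
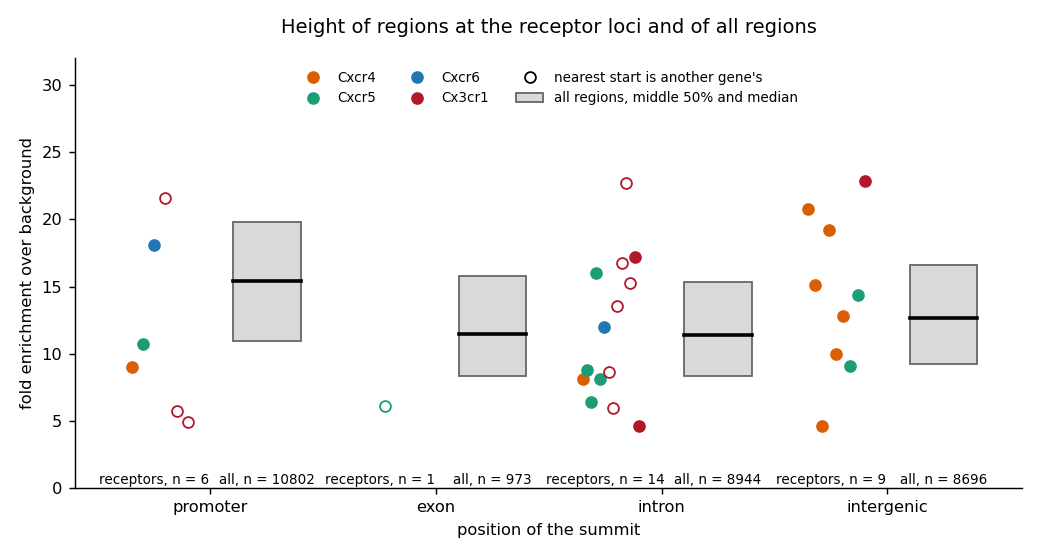
Fold enrichment (vertical axis) of the 30 receptor regions, coloured by gene, left of the middle 50% and median of all 29415 regions in the same class of position (grey boxes). The Cxcr4 and Cxcr5 promoters, at 9.004 and 10.7, lie below the box of all promoters and the Cxcr6 promoter, at 18.1, inside it; the intergenic points with the greatest fold belong to Cx3cr1 and Cxcr4.

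The ratio of observed to expected CpG in the promoter regions was 0.635 at Cxcr4, 0.196 at Cxcr5 and 0.214 at Cxcr6, and 0.744 at the median promoter region of the whole list. The Cxcr5 and Cxcr6 values lay below the median of all regions, 0.349, and the Cxcr4 value between the medians of all regions and of promoters. Most promoters active in many cell types are CpG islands with a high ratio, whereas many lineage-restricted genes lack them. Over all 30 receptor regions the median ratio was 0.258, against the same 0.349 over all regions, and the median GC content 49.6%, against 51.2%. For the 20 assigned regions the median ratio was 0.205. Promoters were 20% of the 30 but 36.7% of all regions, and by class the direction differed among the 30. The medians were 0.399 against 0.744 at promoters, 0.306 against 0.230 in introns and 0.193 against 0.258 in intergenic sequence. For the 20 assigned regions they were 0.214, 0.217 and 0.193 in the same order, each below the median of all regions in its class.

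Of 19 consensus motifs searched on both strands within 50 bp of the summits, the median number with a match was 1 per receptor region and 1 per region of the whole list. The motifs were ETS (GGAAGT), RUNX (TGTGGT), AP-1 (TGANTCA), NF-kB (GGGAANTTC or GGGANTTTC), NFAT (GGAAAA), TCF/LEF (CTTTGA), forkhead (TGTTTAC or TGTTTGC), KLF (GGGTGTG or GGGCGTG), STAT (TTCNNNGAA) and T-box (AGGTGTGA or AGGTGTTA). The others were the E protein E-box (CAGCTG or CAGGTG), the GATA factor site (AGATAA), the interferon-stimulated element ISRE (GAAANNGAA), CRE (TGACGTCA), the glucocorticoid response element GRE (ACANNNTGT), CTCF (AGGNGGCNG), NFY (CCAAT), SP (GGGCGG) and ROR (AGGTCA). Some can share letters, as the E-box and T-box or STAT and ISRE do. For 18 of the 19 the share over all regions lay within the exact 95% interval of the 20 assigned regions. The exception was SP, with 0 of 20 (upper bound 16.8%), against 20.3% of all regions. SP matches sat mostly in promoters, at 42.7% of promoter regions and 7.36% of other regions. By their summits, 17 of the 20 assigned regions were not at promoters.

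**Figure D4:**
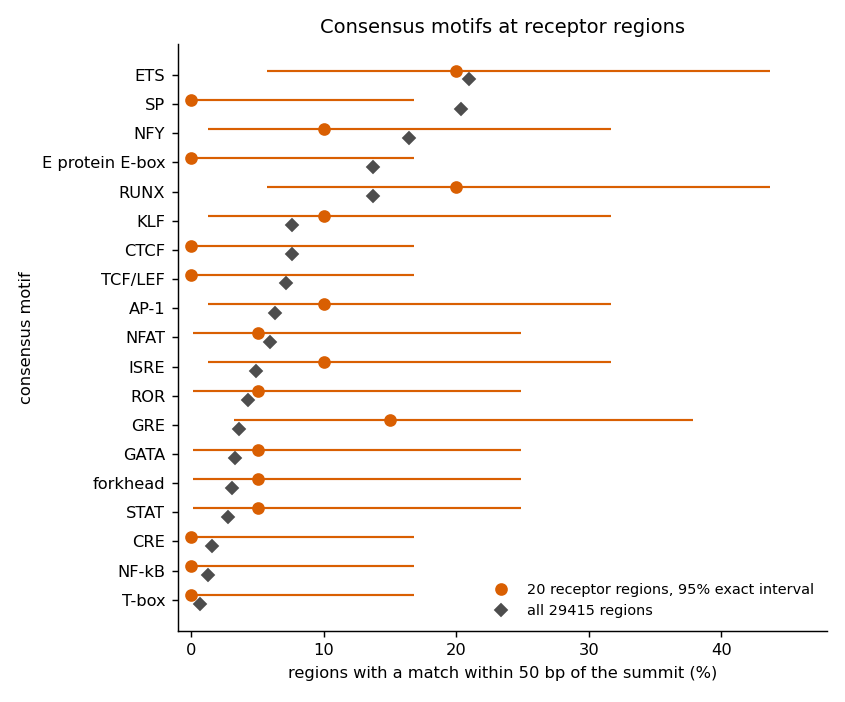
Share of regions with a match to each of 19 consensus motifs within 50 bp of the summit (horizontal axis, %) for the 20 regions assigned to a receptor start (orange, with exact binomial 95% intervals) and for all 29415 regions (grey diamonds). The SP diamond, at 20.3%, is the one that lies outside the interval of the receptor regions.

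ETS and RUNX sites, common in T cell enhancers, were found at 4 of the 20 assigned regions each (20%, interval 5.73% to 43.7%), against 20.9% and 13.7% of all regions. Among regions with summits outside promoters, 4 and 3 of 17 assigned regions held a match, against 22.4% and 18.6% of all such regions. Both Cxcr6 regions held the RUNX match ACCACA, which in the promoter began at the summit itself. The Cxcr5 regions at −6.7 kb and −11.5 kb each held the ETS match GGAAGT, and the Cxcr5 promoter window held none of the 19. At Cx3cr1 +13.3 kb the ETS match ACTTCC covered the summit and a RUNX match lay to one side, while the −4.8 kb region held no match. Cxcr4 +43.4 kb held the AP-1 match TGAGTCA and overlapping STAT and ISRE matches.

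The GRE form ACANNNTGT was at 3 of the 20 assigned regions (15%, interval 3.21% to 37.9%), against 3.63% of all regions and 5.01% of those outside promoters. In the thresholded list all 3 were at Cxcr4, as ACATCCTGT at +22.2 kb and −13.7 kb and as ACATCATGT at −22.7 kb. The same letters ACATCCTGT stood in regions of the pseudoreplicated list at Cxcr4 −75.0 kb and at Cxcr5 +15.5 kb, which is nearest to Bcl9l, and on the other strand at Cx3cr1 +97.9 kb, nearest to Csrnp1. Read from the other strand ACATCCTGT is ACAGGATGT, which also holds the core letters GGA of an ETS site, so the match does not tell the factor families apart. In the weak Cxcr3 region at −3.1 kb an ETS match, the T-box match AGGTGTGA and the E-box match CACCTG lay within the window. The T-box letters were found at 0.683% of all regions in the thresholded list. A match describes letters and shows no binding.

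Among the genes of the same pathway, promoter regions were found for 1 of 6 ligand genes (16.7%, interval 0.421% to 64.1%), against 49.5% of all genes. The ligand gene was Cxcl10, with a fold of 16.5. Cxcl9, Cxcl12 and Cxcl13 had no region under the same rule, and Cxcl16 and Cx3cl1 had 1 and 2 away from their promoters. Of the 18 other chemokine receptor genes, 4 had a promoter region (22.2%, interval 6.41% to 47.6%): Ccr7, the lymph node homing receptor, with a fold of 15.1, Ccr4 with 11.98, Ccr8 with 9.48 and Ccrl2 with 5.94. This compares with 3 of the 5 genes above and with 49.5% of all genes. The most regions in this group were 6, at Ccr1, and 5, at Ccr7, below the 8 each of Cxcr4 and Cxcr5. In the pseudoreplicated list this order did not hold, with 12 regions at Cxcr4 and 15 at Cxcr5, against 18 at Ccr7, 15 at Ccr1 and 14 at Ccr4. In the thresholded list Cxcr2, Ackr1, Ackr3 and Ackr4 had no region.

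**Figure D5:**
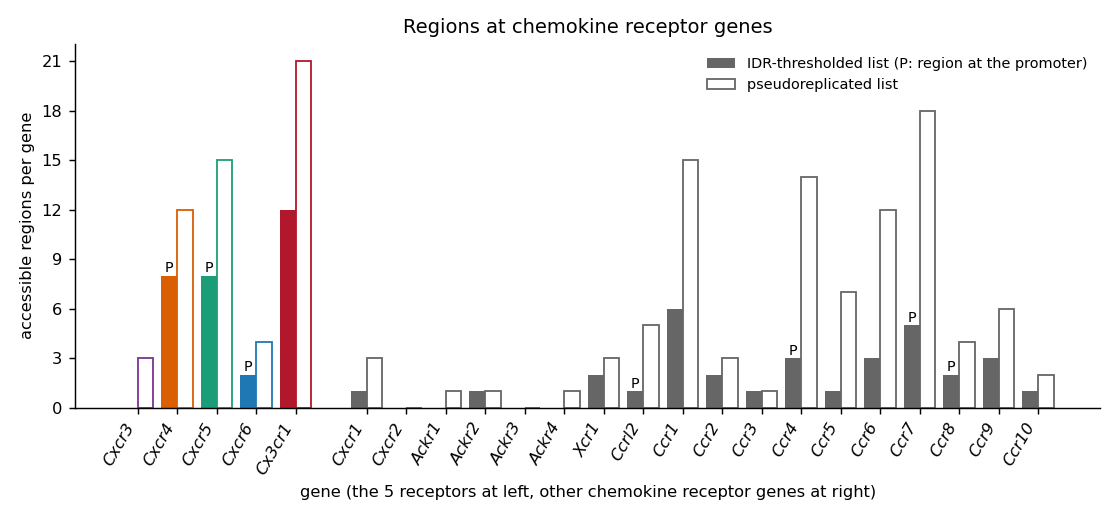
Number of accessible regions per gene (vertical axis) for the 5 receptor genes, at left in colour, and for 18 other chemokine receptor genes, at right in grey, in the IDR-thresholded list (filled bars) and the pseudoreplicated list (open bars). P marks a promoter region in the thresholded list. Cx3cr1 has 12 regions, 9 of them nearer to other genes, Cxcr4 and Cxcr5 have 8 each and Cxcr3 has 0, and none of the 18 others exceeds 6 in the thresholded list; in the pseudoreplicated list Ccr7, with 18, exceeds Cxcr4 and Cxcr5.

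Genes of signalling downstream of the receptors and of migration, which many cell types use, had a promoter region in 24 of 25 cases. This was 96% (interval 79.6% to 99.9%), against 49.5% of all genes. The exception was Grk3, for a kinase that desensitizes receptors. The most regions were at Rap1b (14), for a small GTPase that activates integrins, and at Elmo1 (13), a partner of the Rac activator Dock2, which had 9. Rgs1, whose product shortens chemokine signals and is abundant in activated T cells, had 11, and Rapgef1 10.

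The labelled cell type was checked on the promoters of marker genes. A promoter region was found for 4 of 5 Treg markers (not Tnfrsf18), 4 of 5 general T cell markers (not Cd4), 1 of 5 B cell markers (Pax5), 1 of 5 myeloid markers (Spi1) and 0 of 5 markers of NK and CD8 T cells. In the pseudoreplicated list it was 4 of 5, 5 of 5, 2 of 5, 2 of 5 and 1 of 5, in the same order, against 55.1% of all genes. Of the myeloid list Csf1r and Lyz2 had 0 regions in either list, whereas Itgam had 3 and Cd14 had 2 in the pseudoreplicated list. Of the B cell list Ms4a1 had 0 in either, whereas Cd79a had 5 and Cd79b 3 in the pseudoreplicated list. Cx3cr1 is also used by myeloid cells and Cxcr5 by B cells, and the part of such cells in the values above was not tested. The thresholded list held 58138 peaks in 29415 regions with a median width of 659 bp. Library depth is unknown.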

How the data were processed

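Open chromatin was measured by ATAC-seq in 2 libraries of 1 group. The authors' 3 deposited lists (pseudoreplicated, IDR-thresholded and IDR-ranked peaks on mm10) come from a single filtered alignment, per the deposited text files. Both samples name the same lists, so pooled libraries were assumed. Not given in the sources used here are the aligner, the peak caller, all versions, read filters, any Tn5 shift and the threshold on IDR. Depth is unknown, so no interval or floor rests on it.

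Each deposited peak has a score of at most 1000, a fold (a linear ratio to a background that is not stated), a −log10 p-value and −log10 q-value, and bases to its summit; the units were read from the column order and the values. The authors' ranked list adds −log10 IDR and a −log10 p in each of 2 ranked sets. A fold against a local background can depend on the surroundings of a peak. Values were ranked only within a list, though the folds of 2 lists stand side by side in the plot of the loci and in the closing section, and no p-value was computed and no comparison between conditions was possible.

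Peaks that overlapped or touched were merged, and the greatest fold gave the fold and summit. Positions were read against GRCm38 and GENCODE M21 protein-coding transcripts. Promoters were 1000 bp on either side of any such start. A gene had a promoter region if a region overlapped that window, whereas the class of a region followed its summit. Percentiles are among all regions of the same list. Shares have 95% exact binomial (Clopper-Pearson) intervals. The genes described are the 5 receptors with every region, their neighbours, and lists of ligands, other receptors and signalling genes, of which at most 5 with the most regions and any with none are named; promoters named beside counts of 5 or fewer were chosen after their values were seen. The receptors and lists were chosen with earlier results of these data known. Cxcl11 was not in the gene set used. Python 3.11.15, numpy 2.4.6, pandas 2.3.3, scipy 1.17.1 and matplotlib 3.10.9 were used, and region merging, assignment and motif search were tested on simulated data. Alternatives covered the peak list, stricter thresholds, assignment distance, promoter window, measure of height and motif window.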

Additional observations from a re-analysis of the deposited data

How the results depend on the processing

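With the pseudoreplicated list in place of the IDR-thresholded one, regions at the 5 loci numbered 55 instead of 30, genes with a promoter region 5 instead of 3, and the median fold was 7.33 instead of 11.4. Keeping the upper 50% of all regions by fold left 13 regions, 1 promoter gene (Cxcr6) and, by construction, a higher median fold of 17.2. Counting summits singly gave 50. With −log10 p as the height, the highest region was the same at 2 of 4 genes, Cxcr5 and Cxcr6. With whole regions searched, the median number of motifs with a match was 5, against 1 within 50 bp; the longer sequence gives more matches. The other 31 summary values moved by less than the limits used, which does not mean that they were unchanged. Assignment by nearest start alone left 20 regions instead of 30. The 5′ end of the gene as the only start left 2 promoter genes instead of 3. A promoter window of 2000 bp held 30% of the summits instead of 20%, and one of 500 bp held 20%. An assignment distance of 50 kb left 30 regions. Of 41 counts at single genes, 14 moved and 27 did not. The median percentile of the 30 regions was 38.6 by fold and 55.0 by −log10 p, on the other side of the median of all regions. No paired analysis was possible because there was 1 group, and no library could be left out because no list held values by library. With 1 biological replicate, spread between animals was not measured, and depth is unknown, so regions missing from a list may be too weak to call.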
